A study of Mus musculus with 20 samples.

Results

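The Egr, Nr4a and Npas4 activity-induced factors are 9 genes of 48795 in a table of read counts from mouse sensory-motor cortex. They were taken by name: Egr1, Egr2, Egr3, Egr4, Nr4a1, Nr4a2, Nr4a3, Npas4 and Ier2. All 9 were abundant enough to test, among 17313 genes that were. Messenger RNA was sequenced from 20 offspring of outbred CD-1 mice, 5 libraries in each of 4 groups. Dams of the MIR groups (MIR stands for maternal inflammatory response) were given 0.008 mg/kg lipopolysaccharide intraperitoneally on gestation day 9, and in the control groups the dams were injected with saline. MIR vehicle and control vehicle mice received vehicle 2 hours before euthanasia, and in the MIR rapamycin and control rapamycin groups the injection held rapamycin, which inhibits mTOR, at the same interval. The labels give neither the litter nor the age of each mouse. In the study's litter list the sequenced litters are entered with behaviour tests marked young and a seizure test, without naming the mice tested. The litter list of the study names fewer litters for this experiment than there are libraries, so littermates, which share a treated dam, count as separate mice in every p-value, and the labels name the tissue only as brain.

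Neurons that fire strongly let calcium in and start kinase cascades that phosphorylate factors already bound at a set of promoters, chiefly serum response factor with its Elk partners and the cyclic AMP response element binding protein. The genes under these promoters are transcribed within minutes, without new protein synthesis, and most encode transcription factors or kinase brakes, whose transcripts are short lived. Egr1 to Egr4 encode zinc finger factors, Nr4a1 to Nr4a3 orphan nuclear receptors, Npas4 a basic helix-loop-helix factor that responds to calcium entry in neurons, and Ier2 a short nuclear protein. Their levels in cortex follow recent activity, waking, handling and stress.

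Promoter windows from RefSeq on build GRCm38.p6, from 250 bases before to 50 after a start, were at hand for 6 of the 9 genes. They are shown because the levels of these genes were correlated across libraries and because the elements named above can be read in them. Each stretch runs 5′ to 3′ on the strand of its gene, from 10 bases before the first to 10 after the last marked motif. Capitals mark TGACG or its reverse complement CGTCA, the half-site of the cyclic AMP response element, and in Egr2 also the CArG box, the element that serum response factor binds. The stretches lie at chr10:67537748-67537828 (Egr2, plus strand), chr6:85513684-85513776 (Egr4, minus), chr15:101266603-101266820 (Nr4a1, plus), chr2:57124100-57124213 (Nr4a2, minus), chr4:48045064-48045172 (Nr4a3, plus) and chr19:4990126-4990160 (Npas4, minus).
Egr2: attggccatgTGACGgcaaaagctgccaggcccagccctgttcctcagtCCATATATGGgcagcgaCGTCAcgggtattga
Egr4: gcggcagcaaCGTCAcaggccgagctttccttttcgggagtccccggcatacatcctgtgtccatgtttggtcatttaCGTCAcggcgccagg
Nr4a1: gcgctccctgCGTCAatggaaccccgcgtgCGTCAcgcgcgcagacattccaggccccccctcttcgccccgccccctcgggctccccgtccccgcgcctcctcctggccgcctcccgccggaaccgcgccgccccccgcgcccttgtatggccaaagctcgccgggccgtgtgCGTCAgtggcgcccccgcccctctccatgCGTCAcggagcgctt
Nr4a2: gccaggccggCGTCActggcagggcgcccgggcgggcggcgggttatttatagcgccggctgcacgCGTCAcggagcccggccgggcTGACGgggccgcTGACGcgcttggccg
Nr4a3: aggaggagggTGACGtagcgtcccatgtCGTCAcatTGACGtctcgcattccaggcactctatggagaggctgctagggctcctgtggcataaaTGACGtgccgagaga
Npas4: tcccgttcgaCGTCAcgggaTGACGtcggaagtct

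The half-site TGACG, searched on both strands, was found in 6 of these 6 genes, and in 23.0% of the 27025 genes with a window in the whole table. Nr4a1, Nr4a2 and Nr4a3 held 4 matches each, and Egr2, Egr4 and Npas4 held 2 each. The full palindrome TGACGTCA, which contains the half-site on both strands, was in none of the 6 and in 2.03% of all genes. A CArG box stood in Egr2 alone of the 6, from 72 to 63 bases before the start that is shown, against 1.81% of all genes. Only exact matches to CC, 6 bases of A or T and GG were searched, so forms with a mismatch were not counted. An Egr site, GCGGGGGCG or GCGTGGGCG, was in the Nr4a1 window alone of the 6 (3.93% of all genes), the Nr4a site AAAGGTCA in none (1.70%) and TATAAA in the Nr4a2 window alone (15.7%). These matches are a description of letters in the windows and no measurement of binding, and Egr2 has 5 windows in the table, of which 1 is shown.

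**Figure D1:**
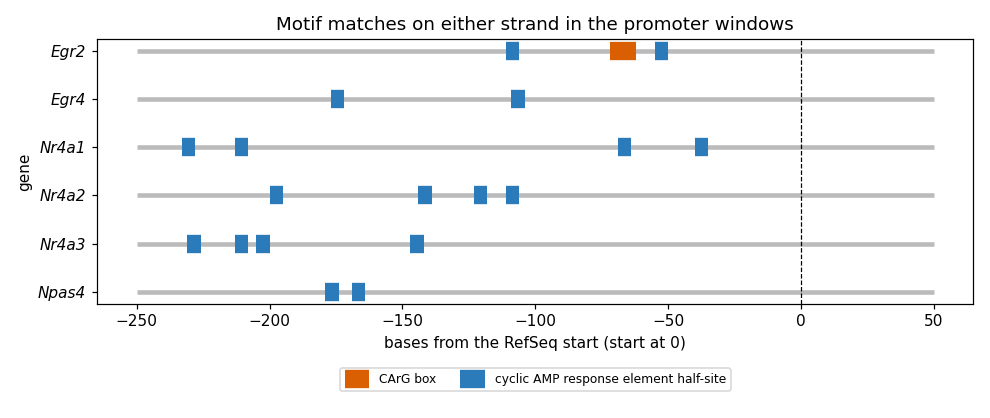
Position of the motif matches in the promoter windows of 6 genes, with the distance from the RefSeq start in bases on the horizontal axis and 1 gene per line. Blue blocks are half-sites of the cyclic AMP response element on either strand, 4 in each Nr4a gene and 2 in Egr2, Egr4 and Npas4, and the orange block is the CArG box of Egr2.

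The libraries held 17.8 to 24.5 M counts, and values are given as CPM, counts per M of the library after scaling. Markers of the tissue set 3 libraries of the control vehicle group apart. A marker score is the mean log2 CPM of a list in a library, with the median library at 0. For 8 markers of cortex excitatory neurons, all of them tested, control vehicle 1 scored -2.97 and control vehicle 2 scored -1.28, while the other 18 libraries scored from -0.19 to 0.32. Control vehicle 1 held striatum markers at a score of 5.28, control vehicle 2 held cerebellum markers at 5.89 and control vehicle 3 held choroid plexus markers (4 of 8 tested) at 6.14, with a summed level of 1294 CPM of its markers against at most 15.2 CPM in any library of the other 3 groups. Main results with the control vehicle group are therefore given also without these 3 libraries, a choice made after seeing the data. The libraries kept were not free of such markers. Control vehicle 4 and 5 had choroid plexus scores of 1.58 and 1.72 and cerebellum scores of 0.50 and 0.51, and striatum scores were 1.70 in control rapamycin 4 and 1.09 in MIR vehicle 4.

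The 9 genes differed widely in level. Per kilobase of exon, Egr1 had the highest mean over the 20 libraries, 129 CPM per kilobase, followed by Nr4a1 at 40.9, Egr3 at 24.7 and Egr4 at 17.8. Egr1 exceeded Nr4a1 in 20 of 20 libraries, Nr4a1 exceeded Egr3 in 18, Egr3 exceeded Egr4 in 18 and Egr4 exceeded Nr4a3 in 19. The next places went to Nr4a3 at 9.38 CPM per kilobase, Ier2 at 8.58, Nr4a2 at 8.38 and Npas4 at 8.15, and these neighbours stood above one another in only 10 or 11 of the 20 libraries, so their order did not hold beyond the spread. Egr2 came last at 6.52 CPM per kilobase, below Npas4 in 15 libraries.

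The spread between mice differed by group. The biological coefficient of variation, the spread within groups after counting error is taken out, is 1 value per gene over the 4 groups, the 3 control vehicle libraries that stand apart included. It ran from 38.7% for Egr3 to 74.5% for Egr2, against a median of 17.6% over all genes tested. The plain coefficient of variation of CPM in MIR rapamycin was lowest for Egr1 at 9.60%, Npas4 at 12.5%, Egr3 at 14.6% and Ier2 at 16.5%. In control vehicle, with the 3 libraries that stand apart, these genes had 80.7, 73.7, 62.0 and 64.4%. Against MIR vehicle the MIR rapamycin value was close for Egr2, at 41.4 against 43.3%, and for Nr4a1, at 25.8 against 27.6%. It was further below MIR vehicle for the other genes. The lowest library was control vehicle 1 or 2 for every one of the 9 genes. Control rapamycin 2 was the highest of its group for 9 of 9 genes, as it was for 18.4% of all genes, and MIR vehicle 2 was the lowest of its group for 9 of 9, as it was for 20.8% of all genes. The spread of log2 CPM was smallest in the MIR rapamycin group for 9 of 9 genes, a pattern found in 48.9% of all genes. It was smaller there than in MIR vehicle for 65% of all genes and than in control rapamycin for 75.6%. These patterns were noticed in the values and carry no test.

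**Figure D2:**
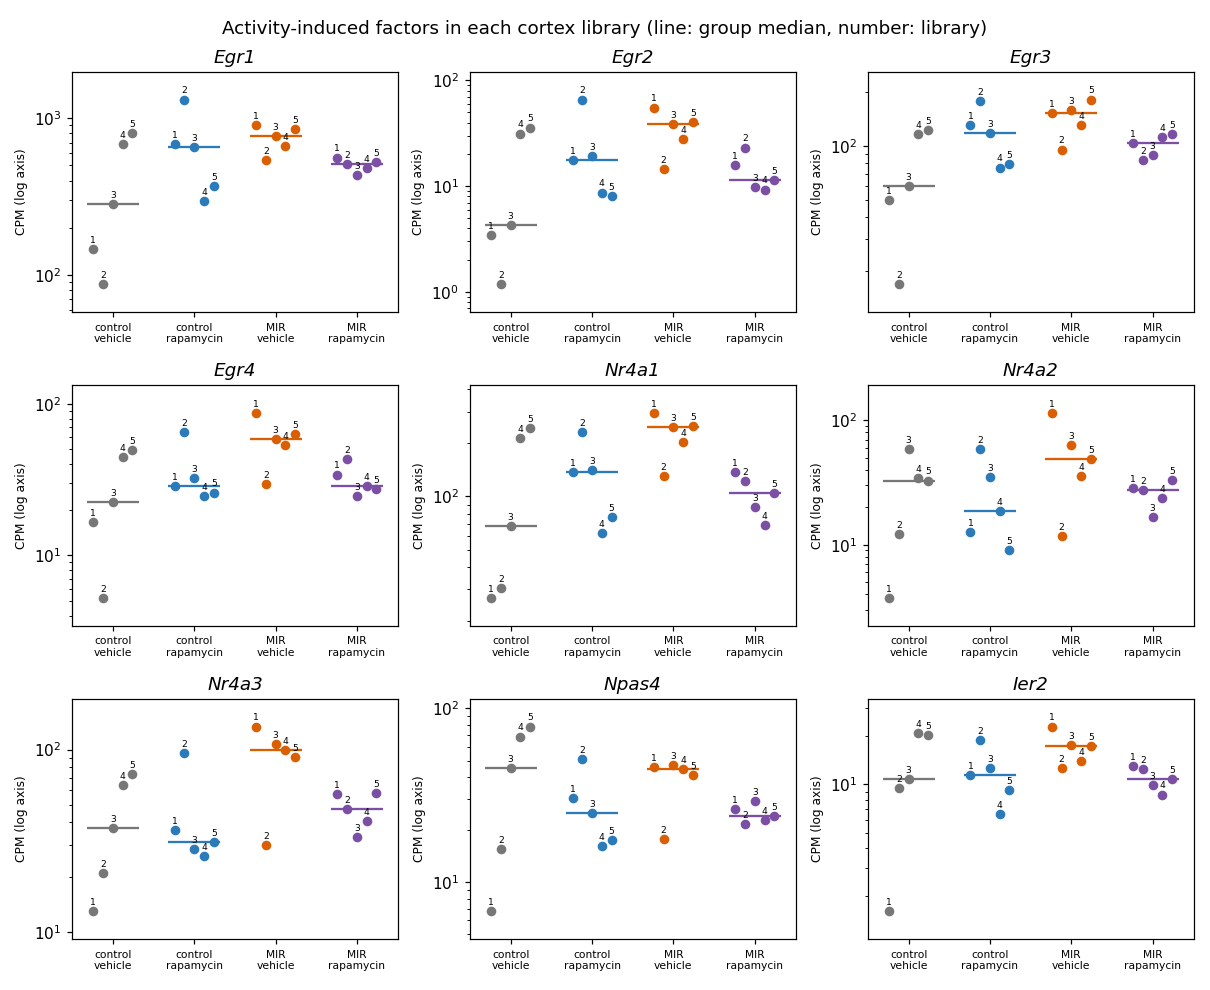
CPM on a log axis of each gene in the 20 libraries, by group, with the library number beside each point and a line at the group median. The lowest point in every panel is control vehicle 1 or 2, and the spread on this log scale is smallest in MIR rapamycin for 9 of 9 genes.

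Egr1, a factor induced by activity, growth signals and learning and used as a marker of active neurons, lies at chr18:34859823-34864984 on the plus strand. In this and the following coordinates the build is mm10 and the span is that of the whole gene. In control vehicle libraries 1 to 5 it stood at 146, 87.1, 284, 685 and 803 CPM, and in control rapamycin at 684, 1316, 656, 297 and 370 CPM. In MIR vehicle it stood at 904, 539, 767, 661 and 857 CPM and in MIR rapamycin at 562, 508, 432, 484 and 524 CPM. The MIR groups overlapped only through MIR vehicle 2, and the control groups overlapped over a wide range.

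Egr2, a factor known for the onset of myelination and for hindbrain segments and in cortex for its induction by activity, lies at chr10:67535475-67542188 on the plus strand. Control vehicle libraries 1 to 5 held 3.44, 1.18, 4.25, 31.5 and 35.9 CPM, control rapamycin 17.8, 66.0, 19.4, 8.70 and 8.05 CPM. MIR vehicle held 55.4, 14.4, 39.1, 27.7 and 40.7 CPM and MIR rapamycin 16.0, 23.2, 9.90, 9.28 and 11.5 CPM. The 3 control vehicle libraries that stand apart held at most 4.25 CPM, and the other 2 of their group at least 31.5 CPM.

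Egr3, an Egr1 relative that is needed for muscle spindles and acts in immune and neural cells, lies at chr14:70077203-70082614 on the plus strand. Its levels were 49.9, 16.8, 59.8, 117 and 122 CPM in control vehicle 1 to 5 and 130.2, 179, 118, 75.7 and 79.3 CPM in control rapamycin. They were 153, 95.5, 158, 131 and 182 CPM in MIR vehicle and 104, 82.9, 89.1, 112 and 117 CPM in MIR rapamycin. Egr3 had the lowest biological coefficient of variation of the 9, at 38.7% over the 4 groups. Within the MIR groups the plain coefficient of variation was lower for Egr1. It was 19.8% for Egr1 against 22.6% for Egr3 in MIR vehicle, and 9.60 against 14.6% in MIR rapamycin.

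Egr4, an Egr member of neurons that is also known from male germ cells, lies at chr6:85511121-85513589 on the minus strand. It measured 16.7, 5.24, 22.6, 44.9 and 49.3 CPM in control vehicle and 28.8, 65.3, 32.5, 24.6 and 26.0 CPM in control rapamycin. It measured 87.0, 29.5, 58.7, 53.6 and 63.2 CPM in MIR vehicle and 34.2, 43.3, 24.6, 28.8 and 27.3 CPM in MIR rapamycin. In 4 of 5 MIR vehicle libraries Egr4 was above every control vehicle library, and the exception was MIR vehicle 2.

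The Nr4a genes encode nuclear receptors that bind DNA without a known hormone. Nr4a1 (chr15:101254269-101274795, plus strand), induced by many stimuli and known from T cell death and metabolism, stood at 26.9, 30.5, 68.2, 214 and 241 CPM in control vehicle and at 137, 232, 141, 62.3 and 76.4 CPM in control rapamycin. It stood at 295, 130.4, 247, 202 and 249 CPM in MIR vehicle and at 136, 122, 87.2, 69.3 and 104 CPM in MIR rapamycin, where 4 of 5 libraries lay below every MIR vehicle library.

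Nr4a2 (chr2:57106830-57124003, minus strand), the receptor that dopamine neurons of the midbrain need and that cortex induces with activity, stood at 3.75, 12.1, 59.0, 34.5 and 32.8 CPM in control vehicle and at 12.6, 58.8, 35.2, 18.6 and 9.06 CPM in control rapamycin. It stood at 114, 11.8, 63.3, 35.6 and 49.0 CPM in MIR vehicle and at 28.5, 27.5, 16.7, 23.6 and 33.2 CPM in MIR rapamycin. Unlike the Egr genes, it was highest of the control vehicle group in library 3, the one with choroid plexus markers. The part of those cells in that value was not tested.

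Nr4a3 (chr4:48045153-48086447, plus strand), the third receptor of the family, stood at 13.0, 21.0, 37.1, 64.0 and 73.3 CPM in control vehicle and at 36.5, 95.7, 28.5, 26.1 and 31.3 CPM in control rapamycin. It stood at 134, 30.1, 107, 99.3 and 90.5 CPM in MIR vehicle and at 57.3, 47.0, 33.4, 40.4 and 57.9 CPM in MIR rapamycin. All MIR vehicle libraries but library 2 were above every library of both control vehicle and MIR rapamycin.

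Npas4 (chr19:4984355-4990316, minus strand), which is induced chiefly in neurons by calcium entry and acts on the balance of excitatory and inhibitory synapses, followed another order. It stood at 6.75, 15.5, 45.1, 68.7 and 78.5 CPM in control vehicle and at 30.2, 51.1, 25.0, 16.1 and 17.4 CPM in control rapamycin. It stood at 45.6, 17.7, 47.2, 44.6 and 41.2 CPM in MIR vehicle and at 26.3, 21.4, 29.1, 22.6 and 24.0 CPM in MIR rapamycin. The highest level of Npas4 was in control vehicle 5, whereas 6 of the other genes were highest in a MIR vehicle library and Egr1 and Egr2 in control rapamycin 2.

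Ier2 (chr8:84661331-84662852, minus strand), an immediate early gene of many cell types, was the least abundant before length is allowed for, at 1.61, 9.43, 10.8, 21.0 and 20.4 CPM in control vehicle and 11.4, 19.0, 12.6, 6.49 and 9.18 CPM in control rapamycin. It measured 22.9, 12.7, 17.5, 13.9 and 17.4 CPM in MIR vehicle and 13.0, 12.5, 9.90, 8.63 and 10.8 CPM in MIR rapamycin. All 9 genes are protein coding in GENCODE M21, and none overlaps another annotated gene on either strand.

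What the prenatal inflammation left altered is addressed by MIR vehicle against control vehicle. None of the 9 genes was called by edgeR's quasi-likelihood test, with a call set at an adjusted p under 0.05 and an absolute log2 fold change over 0.5, and 0.0982% of all genes were called. At an unadjusted p under 0.05 there were 3 of 9, Egr3, Egr4 and Nr4a3, against 16.3% of all genes. Limma voom, DESeq2 and the likelihood ratio test of edgeR each called 0 of 9. The groups overlapped for every one of the 9 genes, and did not for 3% of all genes. Egr3 had a log2 fold change of 0.98 (95% interval 0.23 to 1.72, adjusted p = 0.183), Egr4 of 1.07 (0.20 to 1.95, adjusted p = 0.205) and Nr4a3 of 1.14 (0.22 to 2.07, adjusted p = 0.204). The count of 3 became 6 without control vehicle 4 or without control vehicle 5, where 18.8 and 18.9% of all genes had such a p. Egr1, Egr2, Nr4a1 and Nr4a2 had values of 0.89, 1.22, 0.95 and 0.95, with intervals that all included 0. Npas4, at -0.13 (-1.08 to 0.83, adjusted p = 0.927), and Ier2, at 0.42 (-0.42 to 1.25, adjusted p = 0.661), lay nearest to 0.

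The median of the 9 was 0.95 and that of all genes -0.02, but this depended on the control vehicle libraries that stand apart. Without control vehicle 1 and 2, the pair with low excitatory neuron scores, the median of the 9 was 0.37 with 7 of 9 positive. It was 0.47 with the excitatory neuron score as a covariate and 0.48 with limma voom and sample weights. With control vehicle 1, 2 and 3 left out the median of the 9 was 0.07, and 1 of 9 genes had an unadjusted p under 0.05, against 6.89% of all genes, while 0 of 9 and 0% of all genes were called. That gene was Npas4, at -0.91 (-1.61 to -0.20, adjusted p = 0.591). Egr1 was then at 0.00 (-0.75 to 0.76), Nr4a1 at -0.02 (-0.80 to 0.75), Egr3 at 0.26 (-0.30 to 0.82), Egr4 at 0.31 (-0.43 to 1.04), Egr2 at 0.07 (-1.20 to 1.34), Nr4a2 at 0.70 (-0.64 to 2.04), Nr4a3 at 0.42 (-0.55 to 1.39) and Ier2 at -0.30 (-0.87 to 0.28). In bulk tissue, fewer cells of a type and less RNA per cell cannot be told apart.

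**Figure D3:**
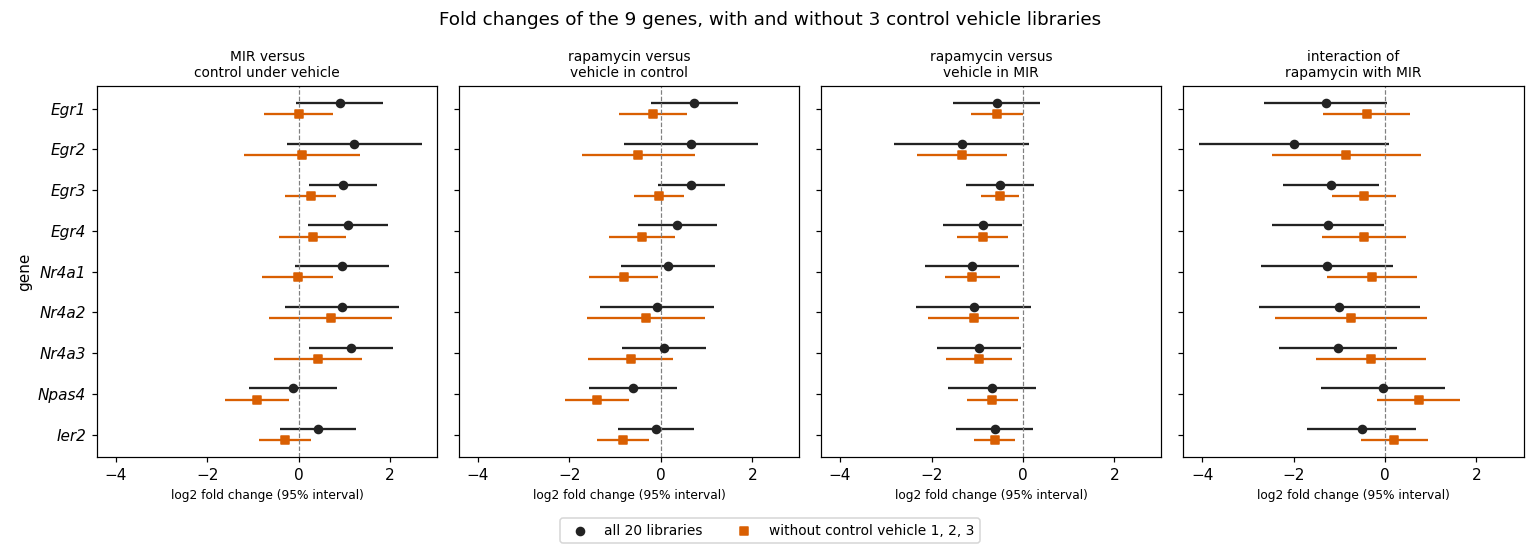
Log2 fold change with its 95% interval for each gene in 4 contrasts, with all 20 libraries (black circles) and without control vehicle 1, 2 and 3 (orange squares). Under vehicle the medians of the 9 genes were 0.95 and 0.07, and for rapamycin in MIR offspring both fits gave a median of -0.88.

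**Figure D4:**
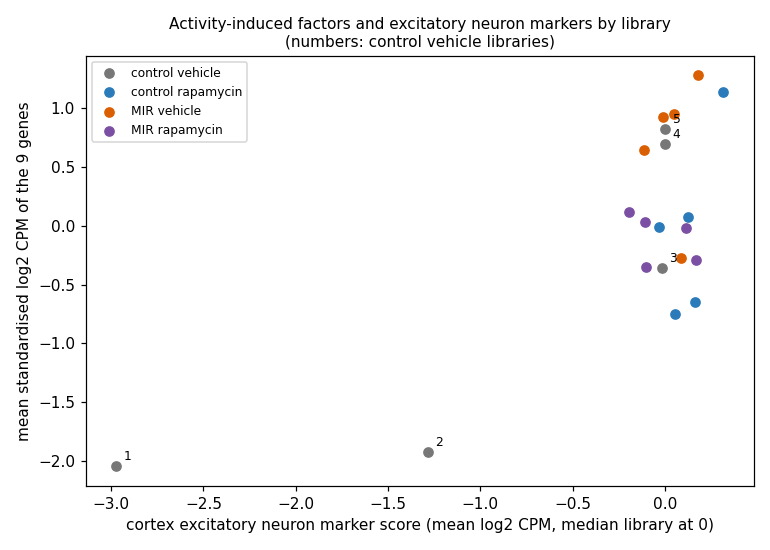
Mean standardised log2 CPM of the 9 genes (vertical) against the excitatory neuron marker score (horizontal), 1 point per library, with the control vehicle libraries numbered. Control vehicle 1 and 2 lie at marker scores of -2.97 and -1.28 and lowest for the 9 genes, and the other 18 libraries span the vertical axis within a narrow range of the marker score.

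The mean standardised log2 CPM of the 9 genes, set to a mean of 0 and an SD of 1 for each gene, was -2.04 in control vehicle 1 and -1.92 in control vehicle 2. Control vehicle 3, whose excitatory neuron score of -0.02 was that of an ordinary library, had -0.36, and control vehicle 4 and 5 had 0.70 and 0.82. The 5 MIR vehicle libraries had 1.28, -0.27, 0.95, 0.64 and 0.92. Of these 5 libraries, 3 were therefore above control vehicle 5, and the other 2 were below control vehicle 4.

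The next comparison asks what acute rapamycin altered in control offspring. None of the 9 genes was called in the quasi-likelihood test and none had an unadjusted p under 0.05, where 5.23% of all genes were called and 27.3% had such a p. No gene of the 9 had groups that did not overlap, against 6.53% of all genes. DESeq2 and the likelihood ratio test called 0 of 9. The largest positive values were 0.73 for Egr1 (-0.23 to 1.68, adjusted p = 0.316) and 0.67 for Egr3 (-0.07 to 1.41, adjusted p = 0.230), and the lowest was -0.62 for Npas4 (-1.58 to 0.34, adjusted p = 0.404). The median of the 9 was 0.16 and that of all genes -0.03.

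Here too the sign depended on the control vehicle libraries for 6 of the 9 genes. When control vehicle 1, 2 and 3 were left out, all 9 log2 fold changes were negative, with a median of -0.49, and 3 of 9 genes had an unadjusted p under 0.05, against 13.9% of all genes. These were Npas4 at -1.40 (-2.10 to -0.70, adjusted p = 0.0804), Ier2 at -0.82 (-1.39 to -0.25, adjusted p = 0.190) and Nr4a1 at -0.82 (-1.57 to -0.06, adjusted p = 0.323). None of the 9 was called there, and 0.2% of all genes were. The control vehicle group is then 2 mice, and the model takes 1 spread per gene from all groups.

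In the quasi-likelihood test on all 20 libraries, Egr3 was nearest to a call for rapamycin in control offspring (adjusted p = 0.230). Npas4 had an adjusted p of 0.404 in that test. Only in some of the alternatives was Npas4 the gene nearest to a call. With control vehicle 1 and 2 left out, but 3 kept, it was called at -1.20 (-1.85 to -0.56, adjusted p = 0.0450 by the quasi-likelihood test, with 1.56% of all genes called). With limma voom and sample weights over all 20 libraries, a fit that counts libraries far from their group for less, it was also called, at -1.38 (adjusted p = 0.0190), with 3.4% of all genes. Its levels in control vehicle 3, 4 and 5, from 45.1 to 78.5 CPM, overlapped those of control rapamycin, from 16.1 to 51.1 CPM, through control rapamycin 2 alone. The adjusted p of Npas4 in this comparison ran from 0.0190 to 0.724 over the alternatives.

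The comparison of rapamycin with vehicle in MIR offspring uses no control library for its means. All 9 log2 fold changes were negative, as were those of 51% of all genes, with a median of -0.88 against -0.00 over all genes. None of the 9 was called, where 0.0173% of all genes were, and 3 of 9, Nr4a1, Nr4a3 and Egr4, had an unadjusted p under 0.05, against 4.99% of all genes. DESeq2, the likelihood ratio test and limma voom called 0 of 9. The groups overlapped for all 9 genes, and did not for 2.78% of all genes. Nr4a1 had a log2 fold change of -1.11 (-2.14 to -0.08, adjusted p = 0.976), Nr4a3 of -0.96 (-1.88 to -0.04, adjusted p = 0.981) and Egr4 of -0.88 (-1.75 to -0.02, adjusted p = 0.988). Egr2 had the lowest value, -1.34 (-2.82 to 0.14), and Nr4a2 had -1.08 (-2.33 to 0.17). Npas4 at -0.67, Ier2 at -0.62, Egr1 at -0.57 and Egr3 at -0.51 had intervals that included 0.

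In this contrast the counts depended on which libraries set the spread. The model shares 1 estimate of spread per gene among the 4 groups, and the control groups are wide for these genes. With the MIR libraries alone in the fit, Nr4a1 had the same fold change of -1.11 with an interval of -1.56 to -0.66 (adjusted p = 0.0525 by the quasi-likelihood test), Egr1 had -0.57 (-0.84 to -0.30, adjusted p = 0.0854) and Egr2 had -1.34 (-2.04 to -0.64, adjusted p = 0.120). All 9 genes had an unadjusted p under 0.05 in that fit, against 12.1% of all genes, and 0 of 9 were called, against 0.187% of all genes. The levels of the 9 genes were correlated over the same libraries, so such counts are not 9 separate results. In the fit without control vehicle 1, 2 and 3, 8 of 9 genes, all but Egr1, had an unadjusted p under 0.05, against 8.26% of all genes, and 0 of 9 were called, against 0.122% of all genes. Leaving out any 1 library kept all 9 fold changes negative, with the median of the 9 between -1.05 without MIR vehicle 2 and -0.62 without MIR vehicle 1. Nr4a2 was at -0.62 without MIR vehicle 1, its highest library, and Nr4a1 stayed between -1.26 and -0.99. The 3 of 9 with an unadjusted p under 0.05 became 0 of 9 without MIR vehicle 1, 3 or 5 or without MIR rapamycin 3 or 4, where 3.44 to 4.71% of all genes had such a p. They became 1 of 9 without MIR vehicle 4 or MIR rapamycin 5, and 5 of 9 without control vehicle 1, against 5.1, 4.16 and 6.14% of all genes.

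For MIR against control offspring under rapamycin, 0 of 9 genes and 0% of all genes were called, and 0 of 9 had an unadjusted p under 0.05, against 10.1% of all genes. DESeq2, the likelihood ratio test and limma voom called 0 of 9. Groups that do not overlap were found for 0 of the 9 and for 4.12% of all genes. Log2 fold changes ran from -0.78 for Egr2 (-2.25 to 0.69) to 0.11 for Nr4a3 (-0.80 to 1.03), with a median of -0.18. All 9 intervals included 0.

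The interaction asks whether rapamycin acted differently in MIR and in control offspring. No gene of the 9 was called, nor was any of all genes (0%), and 2 of 9, Egr3 and Egr4, had an unadjusted p under 0.05, against 12.7% of all genes. DESeq2, the likelihood ratio test and limma voom called 0 of 9. Egr3 had an interaction of -1.18 on the log2 scale (-2.23 to -0.13, adjusted p = 0.364) and Egr4 of -1.24 (-2.46 to -0.01, adjusted p = 0.391). The count of 2 ran from 0, without control rapamycin 2 or MIR vehicle 5, to 6, without control vehicle 5, against 10.2 to 15.0% of all genes over the libraries left out in turn. Left without control vehicle 1, 2 and 3, Egr3 and Egr4 were -0.46 (-1.16 to 0.24) and -0.47 (-1.39 to 0.45). Npas4 was at -0.05 (-1.41 to 1.31) with all libraries and at 0.74 (-0.18 to 1.65) without the 3. The comparisons with the control vehicle group share its libraries, and so do not count as separate evidence.

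The levels of the 9 genes were correlated from mouse to mouse. Over the 36 pairs and 20 libraries the correlations of log2 CPM ran from 0.56 for Egr3 with Ier2 to 0.96 for Egr2 with Egr4, with a median of 0.82. Over the 17 libraries without control vehicle 1, 2 and 3 they ran from 0.64 to 0.96, and after group means were taken out from 0.49 to 0.96. The points share their libraries, their scaling and their dissection, so these are descriptions with no test.

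The genes most like the mean of the 9 among 13265 with at least 1 CPM were Fos at a correlation of 0.98 over the 20 libraries, Junb at 0.96, Arc and Dusp1 at 0.95 and Fosl2 at 0.94. Fosb at 0.93, Dusp6 at 0.91, Midn and Trib1 at 0.90 and Plk3 at 0.89 completed the first 10. Fos, Junb, Fosl2 and Fosb encode parts of the AP-1 factor, Arc a synaptic protein, and Dusp1 and Dusp6 phosphatases that switch off the kinases upstream. Without control vehicle 1, 2 and 3, Fos was still at 0.98 and Junb at 0.96.

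The balance within the 9 differed between groups. Npas4 as a share of Egr1 CPM was 4.62, 17.7, 15.9, 10.04 and 9.77% in control vehicle 1 to 5. It was 3.81 to 5.42% in control rapamycin, 3.28 to 6.75% in MIR vehicle and 4.22 to 6.74% in MIR rapamycin. All control vehicle libraries but the first were above every library of the other 3 groups. Choroid plexus scores were 1.20 to 6.14 in these 4. They were 2.11 in control vehicle 1, 1.22 in MIR vehicle 1 and 1.16 in MIR rapamycin 2, with Npas4 shares of 4.62, 5.04 and 4.22%. Control vehicle 1 also had a striatum score of 5.28 and an excitatory neuron score of -2.97. The part of other tissue in these shares was not tested.

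Nr4a1 as a share of Egr1 CPM was 32.6, 24.2, 32.2, 30.5 and 29.0% in MIR vehicle and 24.3, 24.0, 20.2, 14.3 and 19.9% in MIR rapamycin. It was 18.4, 35.0, 24.0, 31.2 and 30.0% in control vehicle and 17.6 to 21.4% in control rapamycin. Both rapamycin groups were thus at or below the vehicle groups except for control vehicle 1, control vehicle 3 and MIR vehicle 2. Both shares were chosen after the values were seen and are levels of single genes not set per length, so no test is given.

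**Figure D5:**
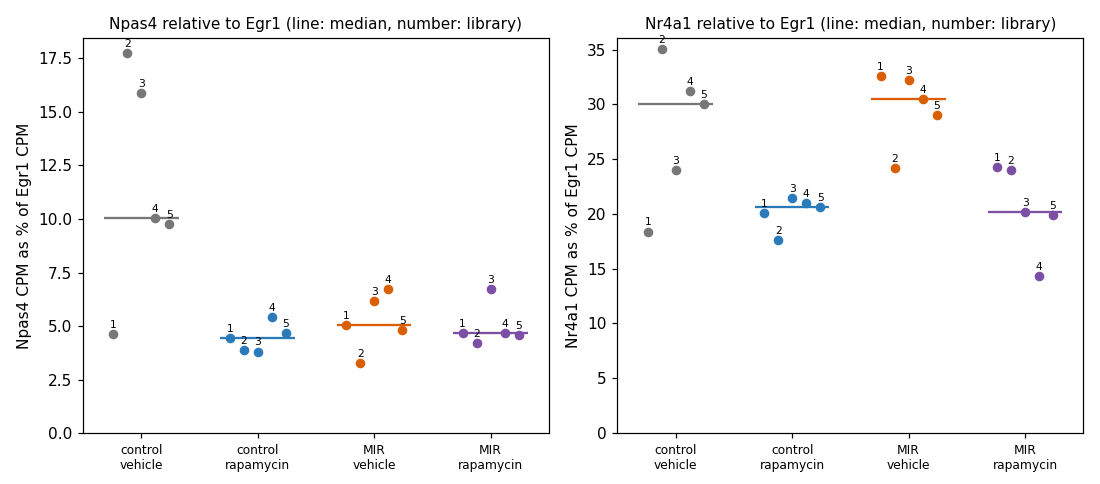
Npas4 (left) and Nr4a1 (right) CPM as a percentage of Egr1 CPM in each library, by group, with library numbers and a line at the group median. Npas4 is at 9.77% or more only in control vehicle libraries 2 to 5, and Nr4a1 is at most 24.3% in both rapamycin groups.

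Among 18 other rapid activity-induced genes that were tested, which include Fos, Arc and Junb, none was called for MIR against control offspring under vehicle and 10 had an unadjusted p under 0.05, all positive, against 16.3% of all genes, with a median log2 fold change of 0.72. Maff, a small AP-1 partner, had the smallest p, at 1.73 (adjusted p = 0.0592), followed by Klf4 at 1.14, Fosl2 at 1.29 and Fbxo33 at 0.36. Without control vehicle 1, 2 and 3 the median was 0.18, with 1 gene of 18 higher and 1 lower at an unadjusted p under 0.05, against 6.89% of all genes.

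For rapamycin in MIR offspring all 18 had negative values with a median of -0.77, and 5 had an unadjusted p under 0.05, against 4.99% of all genes, while none was called. Klf4 was at -1.02, Cyr61 at -1.79, Sik1 at -1.01 and Junb at -1.03. The median was also -0.77 without the 3 control vehicle libraries, with 12 of 18 at an unadjusted p under 0.05, against 8.26% of all genes. In control offspring Maff was the only one of the 18 called with rapamycin, a share near the 5.23% of all genes, higher by 1.59 (adjusted p = 0.0203), and its value was 1.68 without the 3 libraries (adjusted p = 0.174).

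The delayed genes are a list of activity-induced genes that encode mostly secreted and synaptic proteins. Whether the factors above act on them was not tested. Of 15 tested, none was called for MIR under vehicle, 15 were positive with a median of 0.64, and 7 had an unadjusted p under 0.05, against 16.3% of all genes, led by Vgf at 1.06, Homer1 at 1.32, Nptx2 at 1.37 and Inhba at 1.01. Without control vehicle 1, 2 and 3 the median was 0.52 and 5 had such a p, against 6.89% of all genes, with Inhba at 0.95 and Vgf at 0.71. Vgf, a neuropeptide precursor, Nptx2, a synaptic pentraxin, and Inhba, an activin subunit, rose with rapamycin in control offspring, by 0.86, 1.08 and 0.81 on the log2 scale (adjusted p = 0.0256, 0.0326 and 0.0342), 3 of 15 where 5.23% of all genes were called. Without the 3 libraries they were at 0.51, 0.52 and 0.75 and were not called (adjusted p = 0.248, 0.356 and 0.178). In MIR offspring the median of the delayed genes with rapamycin was -0.16. Of the 15, 0 were called, against 0.0173% of all genes, and 0 had an unadjusted p under 0.05, against 4.99%. Without the 3 libraries the median was also -0.16, and 2 of 15 had such a p, both lower, against 8.26% of all genes.

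Of 19 tested upstream factors, which include Srf, Creb1 and the kinases that act on them, 0 were called for MIR under vehicle and 1 for rapamycin in control offspring, a share near the 5.23% of all genes. That one was Rps6ka5, a kinase that phosphorylates Creb1, which fell by 0.71 on the log2 scale (adjusted p = 0.0445) and was at -0.18 and not called without the 3 libraries (adjusted p = 0.682). Their medians were 0.06 for MIR under vehicle and -0.04 for rapamycin in MIR offspring. Crem, whose inducible product represses cyclic AMP responses, was at 0.64 for MIR under vehicle (adjusted p = 0.0557) and at 0.45 without the 3 libraries.

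Of 7 partners and co-repressors, none was called in any of these contrasts, and Nab2, a co-repressor that Egr factors induce, was at 0.65 for MIR under vehicle (adjusted p = 0.0838) and 0.38 without the 3 libraries. Of 7 family relatives none was called either. Ier5, a relative of Ier2, was at 0.84 for MIR under vehicle (adjusted p = 0.124) and at 0.33 without the 3 libraries (adjusted p = 0.793). Npas3 was at -0.43 for rapamycin in control offspring (adjusted p = 0.0246), under the fold limit for a call, and at -0.25 without the 3 libraries (adjusted p = 0.338).

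Targets of the glucocorticoid receptor (Fkbp5, Sgk1, Tsc22d3, Zbtb16, Mt2, Map3k6, Plin4 and Cdkn1a) had scores without overlap between vehicle and rapamycin groups. This list was chosen with earlier results of these data known. The study itself names Plin4 as increased and Cdkn1a as decreased by rapamycin in MIR offspring, so the separation carries no test. The score is a mean over the list, and values of its single genes are not given here. As single genes, 6.53% of all genes did not overlap in control offspring and 2.78% in MIR offspring. The marker score of the targets ran from 0.40 to 1.10 in control rapamycin and from 0.04 to 0.41 in MIR rapamycin. It ran from -1.06 to -0.04 in control vehicle and from -0.80 to -0.22 in MIR vehicle. The endothelium score ran from 0.20 to 0.63 in MIR vehicle, from -0.02 to 0.40 in MIR rapamycin, from -0.18 to 0.06 in control vehicle and from -0.57 to -0.11 in control rapamycin. The part of either in the values of the 9 genes was not tested.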

How the data were processed

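According to the labels and methods, stranded messenger RNA libraries of cortex were aligned by the authors with STAR 2.4.0 to mm10 and counted with HTSeq 0.6.1. The authors deposited raw read counts per Ensembl gene, whole numbers with no normalization. The methods name RefSeq genes, and for the strand setting of the counting, none is given in the sources used here. Libraries judged outliers at quality control were removed before deposit, and which ones is not stated. Samples were grouped by title.

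Genes were kept by filterByExpr (minimum count 10, minimum total 15), libraries were scaled by TMM, and 1 quasi-likelihood model with a mean per group was fitted to all 20 libraries in edgeR 4.0.16 (R 4.3.3, limma 3.58.1). Adjusted p-values are those of Benjamini and Hochberg, taken over 17313 genes. Log2 CPM used a prior count of 2. The common biological coefficient of variation was 21.9%, and depth of 17.8 to 24.5 M counts limits the precision of low genes. Interval limits are 95%. Alternatives were DESeq2 1.42.0, limma voom with weights per sample, the likelihood ratio test, RLE scaling, changed filters and call thresholds, fits of the compared groups alone, a replicate block and each library left out. Leaving out control vehicle 1, 2 and 3, or 1 and 2, and a covariate for excitatory neuron markers were added after seeing the data.

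All 9 genes are named, and of each list up to 4 genes with the smallest p, and the 10 genes most like the mean of the 9. Members and lists were chosen with earlier results of these data known. The deposited table gives no litter for any library, so litter was not modelled, although the litter list of the study implies littermates within groups.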

Additional observations from a re-analysis of the deposited data

Results flagged for a closer look

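A library lay far from the other 4 of its group, by Dixon's criterion on CPM, in 4 of the 36 sets of a gene and a group. Chance gives about 1 in 20 for independent sets. These sets are not independent, because the levels of the genes were correlated over the same libraries. All flags came from control rapamycin 2 and MIR vehicle 2, so no excess over chance can be read from the count. Control rapamycin 2 was high for Egr2 at 66.0 CPM against a group median of 17.8, for Egr4 at 65.3 CPM against 28.8 and for Nr4a3 at 95.7 CPM against 31.3. MIR vehicle 2 was low for Npas4 at 17.7 CPM against 44.6. The cause was not tested.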

How the results depend on the processing

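None of the 9 genes was called under any alternative, except Npas4 for rapamycin in control offspring, where 1 gene was called with limma voom and sample weights and 1 when control vehicle 1 and 2 were left out. Signs were less stable. With voom weights Ier2 was at -0.0052 for MIR under vehicle. For rapamycin in control offspring it gave Egr1 -0.0698, Egr2 -0.27, Egr4 -0.20, Nr4a1 -0.56 and Nr4a3 -0.64. For MIR under rapamycin it gave Nr4a2 0.24, Npas4 0.13 and Ier2 0.0453, and for the interaction Nr4a2 0.0151, Npas4 0.78 and Ier2 0.0505. After control vehicle 1, 2 and 3 were left out, Nr4a1 was at -0.0222 and Ier2 at -0.30 for MIR under vehicle. Rapamycin in control offspring then gave Egr1 -0.17, Egr2 -0.49, Egr3 -0.0446, Egr4 -0.41, Nr4a1 -0.82 and Nr4a3 -0.66, and the interaction Npas4 0.74 and Ier2 0.20. Without control vehicle 1 and 2, Ier2 was at -0.0474 for MIR under vehicle, Egr4 at -0.14, Nr4a1 at -0.43 and Nr4a3 at -0.42 for rapamycin in control offspring, and Npas4 at 0.54 for the interaction. With the covariate for excitatory neuron markers, Ier2 was at -0.18 for MIR under vehicle. For rapamycin in control offspring it gave Egr2 -0.0392, Egr4 -0.0453, Nr4a1 -0.43 and Nr4a3 -0.51. For MIR under rapamycin it gave Nr4a2 0.21, Npas4 0.0308 and Ier2 0.11, and for the interaction Npas4 0.69 and Ier2 0.28. The cause was not tested.

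Leaving out 1 library at a time also changed signs. For rapamycin in control offspring the ranges were -0.18 to 1.25 for Egr2, -0.16 to 0.61 for Nr4a1, -0.59 to 0.37 for Nr4a2, -0.45 to 0.37 for Nr4a3 and -0.39 to 0.15 for Ier2. For MIR under rapamycin they were -1.04 to 0.0532 for Egr2, -0.32 to 0.0057 for Egr3, -0.30 to 0.18 for Egr4, -0.27 to 0.46 for Nr4a2, -0.025 to 0.63 for Nr4a3, -0.32 to 0.16 for Npas4 and -0.25 to 0.14 for Ier2. Npas4 ran from -0.40 to 0.21 for MIR under vehicle and from -0.39 to 0.28 for the interaction. For rapamycin in MIR offspring no alternative changed a sign.

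Same-numbered libraries of 2 groups were correlated over all genes tested, on log2 CPM with group means taken out. These correlations ran from -0.15 to 0.13, with 2 of 20 pairs over 0.1. Of the 20, 5 were best matched by their own number, with 5 libraries to match in each case. Most of these matches were of number 1, its own best match in each pairwise comparison. Its correlations were 0.13 for MIR under vehicle, 0.026 for rapamycin in control offspring, 0.10 for rapamycin in MIR offspring and 0.083 for MIR under rapamycin. With the replicate block 0 of the 9 genes were called, 0 instead of 3 had an unadjusted p under 0.05 for rapamycin in MIR offspring, Nr4a2 was at 0.0248 for MIR under rapamycin, and the genes called over the whole table went from 17 to 0 for MIR under vehicle, from 906 to 425 for rapamycin in control offspring and from 3 to 5 for rapamycin in MIR offspring. For these 3 comparisons DESeq2 called 391, 1312 and 35 genes, the likelihood ratio test 419, 1319 and 28, and voom 23, 588 and 59. Where the other groups were kept out of the fit, the counts were 0, 13 and 31, and without control vehicle 1, 2 and 3 they were 0, 36 and 22.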
